A study of Saccharomyces cerevisiae with 14 samples.

Results

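The RNA exosome is the main 3′-to-5′ exonuclease complex of eukaryotic cells. Its subunits form a ring with a cap, to which the nuclease DIS3 and, in the nucleus, the nuclease RRP6 are attached. The ring and cap guide RNA and do not cut it in yeast. In the nucleus, with the helicase MTR4, the complex trims ribosomal RNA precursors, processes small nucleolar RNAs and degrades faulty and short-lived noncoding transcripts. In the cytoplasm, with the Ski complex, it degrades messenger RNA.

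The 10 genes described here were chosen by name: the cap subunits RRP4, RRP40 and CSL4, the ring subunits RRP42, RRP43, RRP45 and RRP46, the nucleases RRP6 and DIS3, and MTR4. They are 10 of 5449 Saccharomyces cerevisiae genes tested, and each had 1 probe set. The ring subunits SKI6 and MTR3 complete the core and are given beside the 10. The array also carries probe sets for 5 Schizosaccharomyces pombe genes of the same names (csl4, dis3, mtr4, rrp46 and rrp6), which were not counted. Their log2 intensity lay between 3.77 and 5.31, whereas the lowest value of any of the 10 S. cerevisiae genes on any array was 10.08 (MTR4).

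The data are 14 Affymetrix Yeast Genome 2.0 arrays, each of wild-type strain YSBN6 grown in batch at 30 °C in a fermentor held at pH 5. The medium was a defined minimal medium with 20 g/L glucose. Every culture grew on 200 mg/L proline, a poor nitrogen source, until glutamine, a preferred one, was added at once to 400 mg/L. Experiments BY003, BY008 and BY012, which the design text calls biological replicates, were each sampled 10 min before the addition (-10 min) and 7 and 24 min after it. BY008 alone was also sampled at 3, 10, 14, 56 and 120 min, with 1 array each. There was no culture without the addition, so time in the fermentor and the glutamine pulse cannot be told apart. The values are relative hybridisation intensities from total RNA of whole cultures, so a change in the RNA of every cell and a change in a fraction of the cells cannot be told apart.

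Values are log2 intensities, and fold changes are ratios of group means on that scale. Tests are from limma, with 1 mean per time over all 14 arrays and Benjamini-Hochberg adjustment over 5449 genes, and a gene is called where the adjusted p is under 0.05. Glutamine was followed by wide change: against -10 min, 16.7% of genes were called higher and 35.7% lower at 7 min, and 24.1% higher and 44.9% lower at 24 min. The median gene changed by -0.33 on the log2 scale at both times. Median intensity per array ranged from 159 to 279, and whether the arrays were put on a common scale before deposition is not given in the sources used here.

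All 10 exosome genes were called higher both at 7 min and at 24 min. Their median log2 fold change was 1.21 at 7 min and 1.32 at 24 min. The largest adjusted p among them was 0.00947 at 7 min and 0.00194 at 24 min (limma), both for RRP45. For all 10, every array at 7 min and every array at 24 min was above every array at -10 min, which held for 19.5% and 26% of all genes. The comparisons at 7 and 24 min share the arrays at -10 min. The genes moved by different amounts, from 1.39-fold for RRP45 to 4.18-fold for MTR4 at 7 min.

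**Figure D1:**
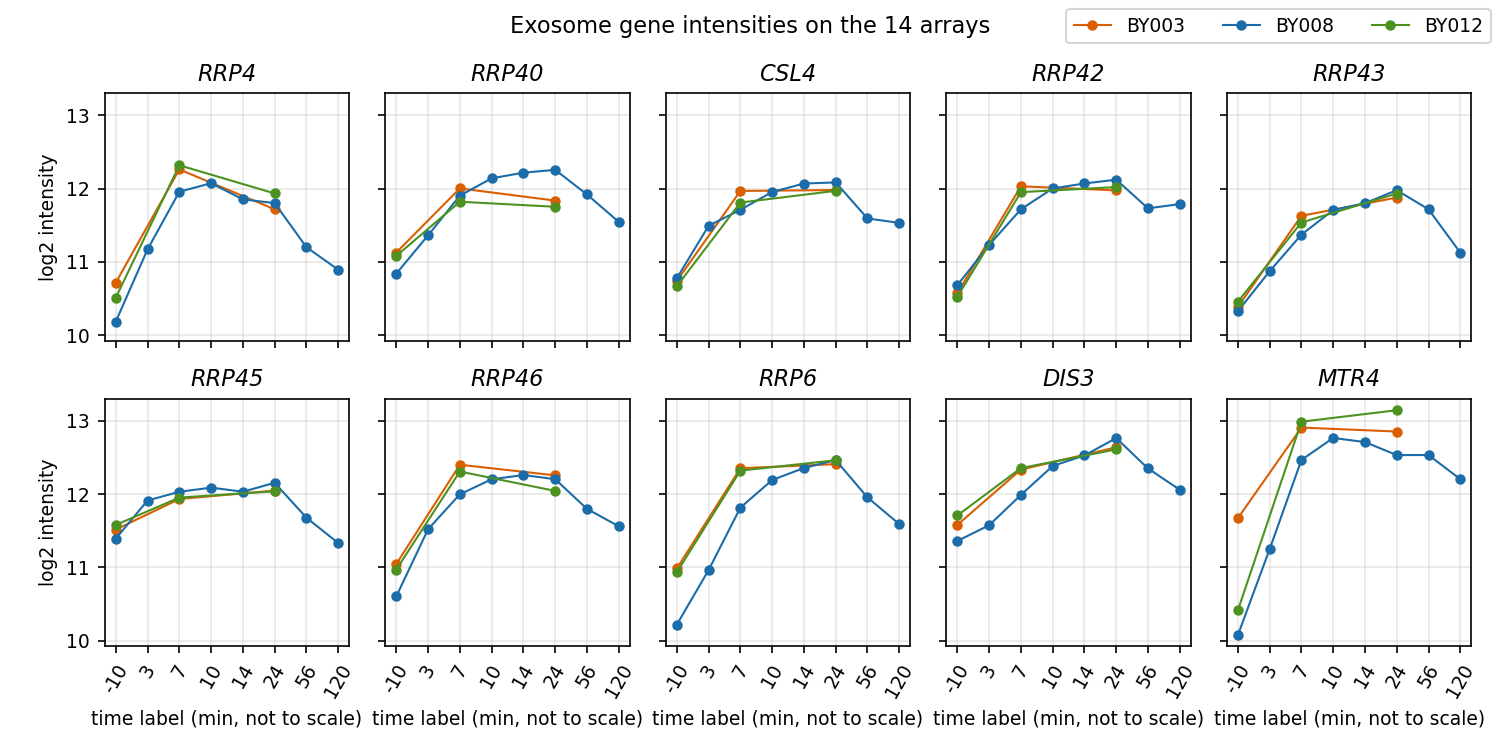
Log2 intensity (vertical axis) of the 10 exosome genes by time label in min (horizontal axis, not to scale) on the 14 arrays. Each point is 1 array and lines join the arrays of 1 experiment. Every gene was lowest at -10 min in BY003 and BY012, and MTR4 at -10 min was higher in BY003 (11.67) than in BY008 (10.08) and BY012 (10.42).

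RRP4 (YHR069C, probe set 1775722_at) encodes an RNA-binding cap subunit. Its log2 intensity at -10 min was 10.72, 10.19 and 10.51 in BY003, BY008 and BY012. At 7 min it was 12.26, 11.96 and 12.32 in the same order, and at 24 min 11.72, 11.80 and 11.93. The 3 groups of arrays did not overlap, with 7 min the highest and 24 min between it and the start. RRP4 rose 3.26-fold at 7 min (log2 1.71 ± 0.17 SE, limma adjusted p 7.24e-05) and stood 2.54-fold above the start at 24 min (limma adjusted p 0.000103). Its decline of -0.36 from 7 to 24 min did not pass the test (limma adjusted p 0.136), although all 3 experiments were lower, by -0.54, -0.16 and -0.38.

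RRP40 (YOL142W, 1771372_at) encodes another RNA-binding cap subunit. It measured 11.13, 10.84 and 11.08 at -10 min, 12.00, 11.90 and 11.82 at 7 min, and 11.84, 12.26 and 11.75 at 24 min. The arrays at 7 and 24 min overlapped, and BY008 was the highest at 24 min. RRP40 rose 1.85-fold at 7 min (log2 0.89 ± 0.16 SE, limma adjusted p 0.00194) and 1.91-fold at 24 min (limma adjusted p 0.000791).

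CSL4 (YNL232W, 1776665_at), the remaining cap subunit, spread little among arrays of 1 time. It measured 10.74, 10.78 and 10.67 at -10 min, 11.97, 11.71 and 11.81 at 7 min, and 11.98, 12.08 and 11.97 at 24 min. The start lay well apart from both later times, which lay next to each other. CSL4 rose 2.14-fold at 7 min (log2 1.10 ± 0.12 SE, limma adjusted p 0.000136) and 2.43-fold at 24 min (limma adjusted p 2.03e-05).

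The ring subunits have the fold of bacterial RNase PH, without its activity in yeast. RRP42 (YDL111C, 1777295_at) measured 10.57, 10.68 and 10.53 at -10 min, 12.03, 11.72 and 11.95 at 7 min, and 11.98, 12.12 and 12.02 at 24 min. Its later times overlapped and its start did not. It rose 2.47-fold at 7 min (log2 1.31 ± 0.13 SE, limma adjusted p 7.59e-05) and 2.72-fold at 24 min.

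RRP43 (YCR035C, 1779717_at) encodes another ring subunit, and was the gene of the 10 called higher at 24 than at 7 min. It measured 10.39, 10.33 and 10.46 at -10 min, 11.63, 11.37 and 11.54 at 7 min, and 11.88, 11.98 and 11.93 at 24 min. Every array at 24 min was above every array at 7 min, as was also the case for CSL4, RRP45, RRP6 and DIS3. For CSL4 the gap was very small, with 11.9697 the lowest at 24 min and 11.9681 the highest at 7 min. The share of all genes separated in this way was not counted, so this count has no background beside it. The gene rose 2.17-fold at 7 min (log2 1.12 ± 0.12 SE, limma adjusted p 0.000124) and 2.90-fold at 24 min (limma adjusted p 7.62e-06).

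RRP45 (YDR280W, 1777790_at) changed least of the 10 in the fit. It measured 11.52, 11.39 and 11.58 at -10 min, 11.93, 12.03 and 11.95 at 7 min, and 12.05, 12.15 and 12.04 at 24 min. Its start did not overlap either later time, and its arrays of 1 time lay close together (SD 0.09, 0.05 and 0.06 log2, n = 3). It rose 1.39-fold at 7 min (log2 0.48 ± 0.12 SE, limma adjusted p 0.00947) and 1.50-fold at 24 min (limma adjusted p 0.00194). The call at 7 min was lost without BY003 (limma adjusted p 0.122) or without BY008 (limma adjusted p 0.0776), and that at 24 min without BY003 (limma adjusted p 0.0520), with log2 fold changes of 0.50, 0.39 and 0.61.

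RRP46 (YGR095C, 1775054_at) measured 11.05, 10.61 and 10.97 at -10 min, 12.40, 12.00 and 12.31 at 7 min, and 12.26, 12.20 and 12.04 at 24 min. BY008 was the lowest at -10 and 7 min, and the later times overlapped. RRP46 rose 2.57-fold at 7 min (log2 1.36 ± 0.17 SE, limma adjusted p 0.000213) and 2.45-fold at 24 min. The ring subunits outside the 10 rose as well. SKI6 (YGR195W, 1779447_at) rose 3.16-fold at 7 min (limma adjusted p 0.000326) and 3.21-fold at 24 min, from 10.90, 10.68 and 9.98 at -10 min. MTR3 (YGR158C, 1774927_at) rose 2.86-fold at 7 min (limma adjusted p 0.000180) and 3.94-fold at 24 min, from 9.59, 9.23 and 9.01. For both, BY012 had the lowest start.

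DIS3 (YOL021C, 1770063_at), the catalytic subunit of the core with both an exonuclease and an endonuclease site, had the smallest fitted change at 7 min after RRP45 and the largest from 7 to 24 min. It measured 11.58, 11.36 and 11.71 at -10 min, 12.33, 11.99 and 12.35 at 7 min, and 12.64, 12.76 and 12.61 at 24 min. The 3 groups of arrays did not overlap, and 24 min was the highest. DIS3 rose 1.60-fold at 7 min (log2 0.68 ± 0.15 SE, limma adjusted p 0.00567) and 2.17-fold at 24 min (limma adjusted p 0.000159). The call at 7 min was lost without BY003, where the log2 fold change was 0.64 (limma adjusted p 0.104).

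RRP6 (YOR001W, 1778202_at), the nuclear nuclease, measured 10.99, 10.22 and 10.94 at -10 min, 12.35, 11.81 and 12.32 at 7 min, and 12.41, 12.46 and 12.46 at 24 min. BY008 lay below the other experiments at -10 and 7 min, and the 3 experiments lay together at 24 min (SD 0.43, 0.30 and 0.03, n = 3). RRP6 rose 2.73-fold at 7 min (log2 1.45 ± 0.23 SE, limma adjusted p 0.000801) and 3.32-fold at 24 min (limma adjusted p 0.000120).

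MTR4 (YJL050W, 1774018_at), the helicase that unwinds RNA and feeds it to the nuclear exosome, had the largest fitted change and the largest spread. It measured 11.67, 10.08 and 10.42 at -10 min, 12.91, 12.46 and 12.99 at 7 min, and 12.85, 12.53 and 13.14 at 24 min. The start in BY003 stood apart from the other starts (group SD 0.84, n = 3), while no array at 7 or 24 min was below 12.46. MTR4 rose 4.18-fold at 7 min (log2 2.06 ± 0.37 SE, limma adjusted p 0.00169) and 4.35-fold at 24 min (limma adjusted p 0.000731). Within experiments the rise at 7 min was 1.23 in BY003, 2.39 in BY008 and 2.57 in BY012, so MTR4 led the 10 in BY008 and BY012, and RRP4 led in BY003 at 1.54. Without BY003 the fitted log2 fold change of MTR4 was 2.48 at 7 min and 2.59 at 24 min.

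**Figure D2:**
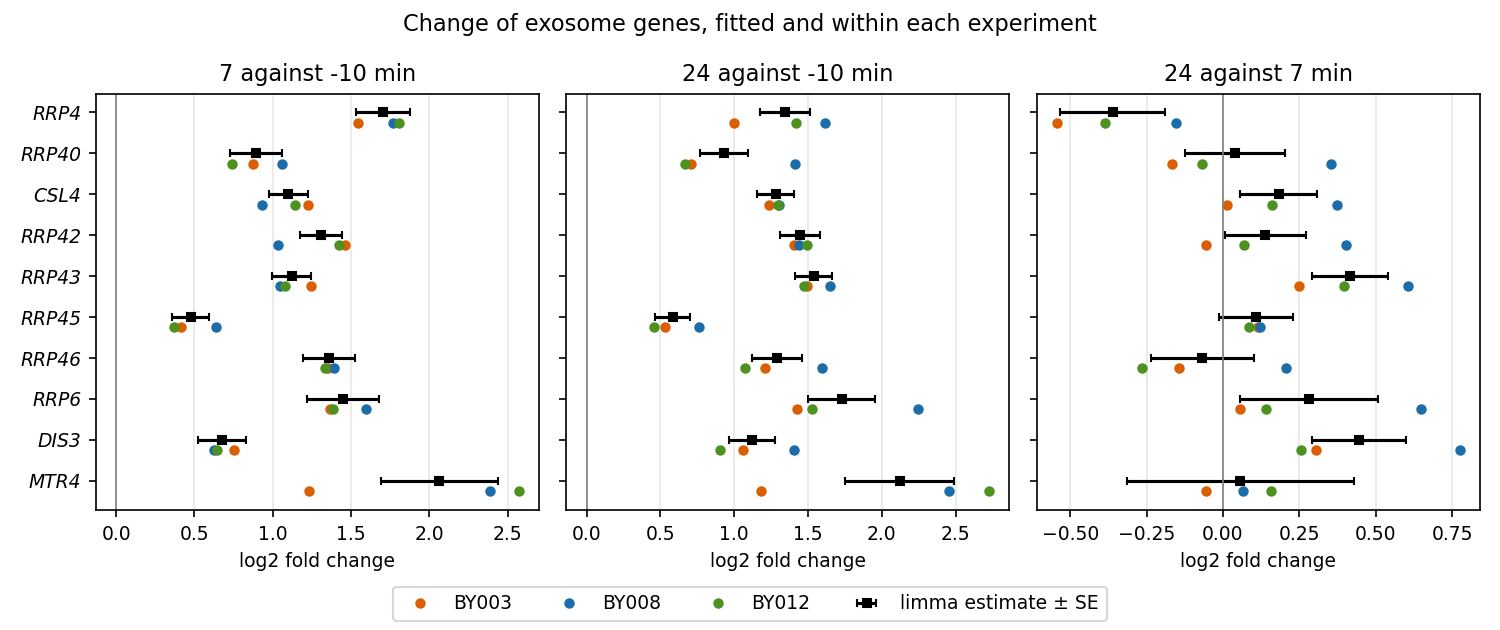
Log2 fold change (horizontal axis) of each exosome gene (vertical axis) at 7 against -10 min, 24 against -10 min and 24 against 7 min. Black squares with bars are limma estimates ± SE and coloured points are differences within 1 experiment. All points of the first 2 panels are above 0, with RRP45 nearest to it, and in the last panel RRP4 lies below 0 in all 3 experiments and CSL4, RRP43, RRP45, RRP6 and DIS3 lie above it in all 3.

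From 7 to 24 min the median log2 difference over the 10 was 0.12, and -0.01 over all genes. RRP43 alone was called, 1.33-fold higher at 24 min (log2 0.42 ± 0.12 SE, limma adjusted p 0.0308), against 13.2% of genes called higher and 20.2% called lower. The difference was 0.25, 0.61 and 0.40 in BY003, BY008 and BY012, and the call was lost when any of them was left out (limma adjusted p 0.200, 0.182 and 0.0798). None was called lower, and 2 were higher and 0 lower at an unadjusted p under 0.05. DIS3, at 0.44 ± 0.15 SE, had an adjusted p of 0.0512 in limma, and of 0.0418 in the fit that pairs arrays of 1 experiment. With each array's median subtracted DIS3 had an adjusted p of 0.0161 (limma). RRP4 and RRP46 had negative estimates, -0.36 and -0.07, and neither passed the test. For the remaining 6 genes the estimates lay between 0.04 (RRP40) and 0.28 (RRP6).

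The course of BY008 shows how fast the genes rose and how far they came back. These times have 1 array each, so the differences from the -10 min array of BY008 have no test. At 3 min all 10 were above the start, by a median of 0.63 on the log2 scale against -0.02 for all genes. MTR4 was 1.17 above the start, RRP4 0.98 and RRP46 0.91, while DIS3 was 0.21 above it. MTR4 was the single gene of the 10 at 2-fold or more, a level reached by 4.44% of all genes.

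At 10 and 14 min the medians over the 10 were 1.35 and 1.43, and 9 of the 10 were at least 2-fold above the start at both times, against 10.5% and 11.3% of all genes. The gene below 2-fold was RRP45, at 0.69 and 0.64. RRP4 and MTR4 were highest at 10 min (1.89 and 2.69), RRP46 at 14 min (1.65), and the other 7 at 24 min. At 24 min RRP6 had reached 2.24, RRP43 1.65 and DIS3 1.40.

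The return was partial and uneven. At 56 min the median was 1.06, with 7 of the 10 at least 2-fold above the start against 12.4% of all genes. At 120 min the median was 0.78 and 3 remained at least 2-fold above it, MTR4, RRP6 and RRP42, against 8.53% of all genes. As a share of each gene's highest log2 difference from the BY008 start, 120 min stood at 79.1% for MTR4, 76.9% for RRP42, 61.1% for RRP6 and 37.5% for RRP4. These shares and their order rest on that 1 starting array, and shares with another start were not computed. RRP45 was back at its start (-0.06).

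The starting array of BY008 was low for these genes. It held the lowest of the 3 values at -10 min for 8 of the 10, all but CSL4 and RRP42, against 37.1% of all genes. With the mean of the 3 arrays at -10 min as the start, the medians were 0.51 at 3 min, 1.32 at 10 min, 1.38 at 14 min, 0.91 at 56 min and 0.71 at 120 min. DIS3 at 3 min was then 0.03 above the start. MTR4 at 3 min was 0.53 above it, below CSL4 at 0.76, so MTR4's lead at 3 min depends on the start used. That mean includes the high BY003 start of MTR4 (11.67, against 10.08 in BY008 and 10.42 in BY012). At 120 min MTR4 was 1.48 above the mean start. RRP6 at 120 min was 0.88 above it, and the number at least 2-fold above it was 0 at 3 min, 8 at 10 and 14 min, 4 at 56 min and 2 at 120 min.

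**Figure D3:**
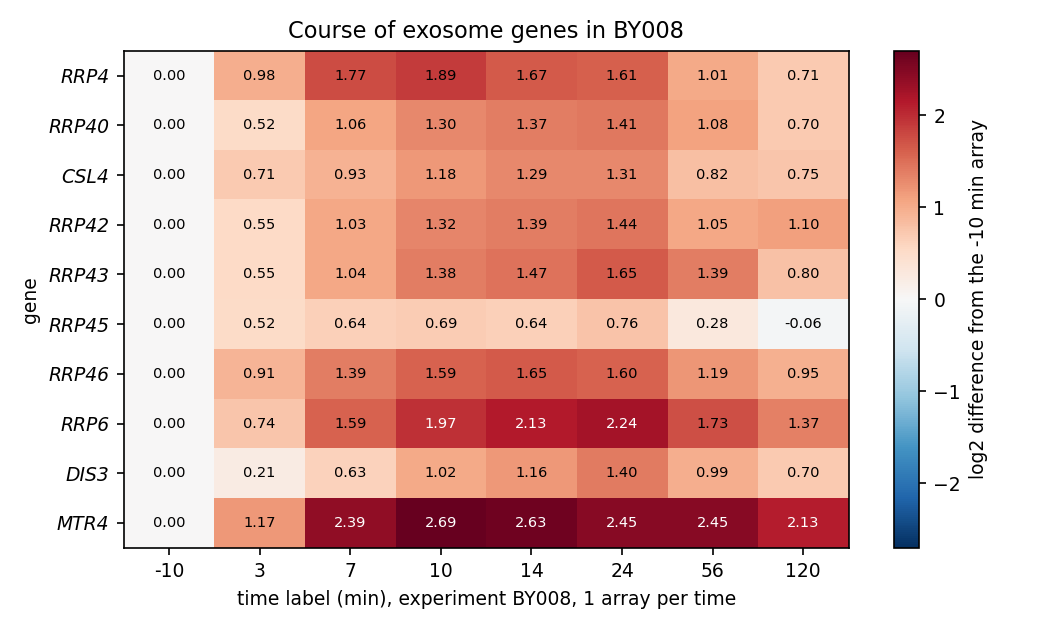
Log2 difference from the -10 min array of BY008 (colour and printed value) for each exosome gene (rows) by time (columns), 1 array per time. The first column is the -10 min array itself, and the others are the 7 times after glutamine, from 3 to 120 min. Against this single start MTR4 has the largest difference at each time after glutamine (2.13 at 120 min), DIS3 the smallest at 3 min (0.21), and RRP45 ends at -0.06.

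Across the 14 arrays the exosome genes followed each other closely. Pearson's r between pairs of the 10 ranged from 0.668 (RRP45 with MTR4) to 0.981 (CSL4 with RRP42), with a median of 0.895 over 45 pairs. Against the mean of the other 9, r was lowest for RRP45 (0.792) and highest for RRP46 (0.980). These arrays share their times and experiments, and the values are descriptions. The genes outside the 10 with the most alike course were NOB1 (0.998), ENP1, IPI3, HCA4 and BMT2 (0.995). NOB1 is the endonuclease that forms the mature 3′ end of small-subunit rRNA, ENP1 and the helicase HCA4 act in small-subunit assembly, IPI3 in large-subunit assembly, and BMT2 methylates large-subunit rRNA. MTR3 ranked 125 (0.979) and SKI6 369 (0.931). Of 5439 other genes 463 had r above 0.9, and the median over these other genes was -0.458.

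A list of 4 nuclear cofactors and adaptors of the exosome comprised LRP1, which binds RRP6, MPP6, an RNA-binding cofactor, and NOP53 and UTP18, which dock MTR4 onto ribosomal precursors. All 4 were called higher at both times, next to 16.7% of all genes at 7 min and 24.1% at 24 min. Their median log2 fold change was 2.1 at 7 min and 2.54 at 24 min. UTP18 rose 6.99-fold and NOP53 4.62-fold at 7 min, next to 4.18-fold for MTR4. MPP6 rose by 1.99 at 7 min and 2.55 at 24 min. LRP1 rose by 0.62 ± 0.23 SE at 7 min (limma adjusted p 0.0443) and 1.33 at 24 min (limma adjusted p 0.000605). Its call at 7 min was lost without BY003, BY008 or BY012 (limma adjusted p 0.121, 0.0861 and 0.110).

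MTR4 also works in the TRAMP complex, which adds short poly(A) tails to nuclear RNA and contains 1 of the poly(A) polymerases PAP2 (Trf4) and TRF5 and 1 of the RNA-binding proteins AIR1 and AIR2. In each pair 1 gene was called higher at both times, next to 16.7% of all genes at 7 min and 24.1% at 24 min. AIR1 rose 8.0-fold at 7 min and 11.0-fold at 24 min (log2 3.00 and 3.45 ± 0.18 SE, limma adjusted p 9.15e-06 and 1.65e-06). AIR2 changed by -0.56 at 7 min (limma adjusted p 0.0147) and by -0.29 at 24 min (limma adjusted p 0.126). The AIR2 call at 7 min was lost with array medians subtracted (limma adjusted p 0.0724) and with quantile normalization (limma adjusted p 0.260). It was also lost without BY003, BY008 or BY012 (limma adjusted p 0.0564, 0.103 and 0.0763). TRF5 rose by 1.09 and 1.50 (limma adjusted p 0.00214 and 0.000157), the first of them not called without BY003 (limma adjusted p 0.0582). PAP2 changed by -0.05 and 0.06 (limma adjusted p 0.824 and 0.810), although at 24 min quantile normalization gave 0.49 (limma adjusted p 0.0356). The differences between members of a pair were not tested.

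The Nrd1-Nab3-Sen1 complex ends noncoding transcripts and passes them to the nuclear exosome. Of its 3 genes 1 was called lower at both times and none higher, next to 35.7% and 44.9% of all genes called lower. By this count the 3 genes do not stand apart. NRD1, an RNA-binding subunit, fell by 2.44 ± 0.29 SE at 7 min (limma adjusted p 0.000157) and stood at -2.58 at 24 min (limma adjusted p 4.35e-05). NAB3 gave 0.01 and 0.07 and SEN1 -0.004 and -0.11, none of them past the test.

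The exosome's partners in the cytoplasm are the Ski complex (the helicase SKI2, the scaffold SKI3 and SKI8) and SKI7, which joins it to the exosome. Of these 4 genes 0 were called higher and 1 lower at 7 min, and 0 higher and 2 lower at 24 min. Over all genes 16.7% were higher and 35.7% lower at 7 min, and 24.1% higher and 44.9% lower at 24 min. The list's medians of -0.36 and -0.26 are close to the -0.33 of all genes, so the 4 genes do not stand apart by these counts. SKI7 fell by 1.11 ± 0.17 SE at 7 min (limma adjusted p 0.000662). SKI8 at 7 min was -0.47 (limma adjusted p 0.0615, or 0.0131 with the experiment as a block). At 24 min SKI7 stood at -0.66 (limma adjusted p 0.00646) and SKI8 at -0.48 (limma adjusted p 0.0451), but neither was called with array medians subtracted or without BY003. SKI2 and SKI3 were not called at 7 min (-0.25 and -0.07, limma adjusted p 0.124 and 0.651) or at 24 min.

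Other routes of RNA decay were counted in the same fit. Of the exonucleases acting from the 5′ end and their partners, the cytoplasmic XRN1 fell by 1.57 at 24 min (limma adjusted p 5.38e-05), while the nuclear RAT1 rose by 0.66 (limma adjusted p 0.00301, or 0.0676 without BY003) and its partner RAI1 by 1.34 (limma adjusted p 2.39e-05). XRN1 was also called at 7 min (-0.68, limma adjusted p 0.0115), but not without BY003 or BY012 (limma adjusted p 0.0839 and 0.0807). In that list of 4, with DXO1, 1 was higher and 1 lower at 7 min, and 2 higher and 1 lower at 24 min. At 7 min DXO1 was also called lower with the experiment as a block (-0.36, limma adjusted p 0.0465), and RAT1 higher with array medians subtracted (0.51, limma adjusted p 0.0129). DXO1 was called higher at 24 min with quantile normalization (0.42, limma adjusted p 0.0365). Decapping and Lsm genes had 0 of 15 higher and 6 lower at 7 min and 1 higher and 7 lower at 24 min, led by the decapping activators EDC1 (fell by 1.52 at 7 min) and EDC2 (fell by 2.18 at 24 min). Deadenylation genes had 1 of 11 higher and 3 lower at 7 min, and 1 higher and 5 lower at 24 min, among them PAN2 and PAN3, which fell by 1.04 and 0.93 at 24 min. These counts are near the share of all genes called lower (35.7% and 44.9%), and they moved with the setting. With array medians subtracted they became 2 higher and 4 lower, then 4 and 4, for decapping, and 1 and 1, then 5 and 2, for deadenylation. Without BY003 they became 0 higher and 2 lower, then 0 and 4, for decapping, and 0 and 0, then 1 and 2, for deadenylation. Without BY008 the decapping count at 24 min was 0 higher and 4 lower, and with the experiment as a block it was 3 higher and 7 lower. Deadenylation at 7 min was 0 higher and 2 lower without BY008. All 3 nonsense-mediated decay genes (NAM7, NMD2 and UPF3) were called higher at both times, with medians of 0.83 and 0.91. Over all genes 16.7% were called higher at 7 min and 24.1% at 24 min. NAM7 was called at neither time without BY003, and not at 24 min without BY008 (limma adjusted p 0.0751).

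The nuclear exosome trims rRNA precursors during ribosome assembly. Of 61 small-subunit assembly factors 61 were called higher at both times (median 2.61 and 2.90), and of 70 large-subunit factors 69 were called higher at 7 min and 70 at 24 min (median 2.61 and 2.77), the exception at 7 min being REA1 (0.01). Examples are the small-subunit factor PWP2 (3.75 and 3.92) and the helicase DRS1 (3.86 and 4.03). All 10 exosome genes lay below the lower quartile of these 131 factors, 2.11 at 7 min and 2.36 at 24 min. MTR4 (2.06 ± 0.37 SE at 7 min) was, however, within its error of that quartile. Without BY003 MTR4 measured 2.48 and 2.59. The factors were then higher too, with medians of 2.88 and 3.20 (small subunit) and 2.84 and 3.06 (large subunit). Their quartile without BY003 was not computed. In the fit of all arrays MTR4 was exceeded by 101 of the 131 at 7 min and by 109 at 24 min. In the same fit 7 and 5 of the 131 lay below the median of the 10. The difference between the exosome genes and the assembly factors was not tested. Of 10 other nucleases of rRNA precursors, 7 were called higher and 0 lower at 7 min and 9 higher at 24 min, with medians of 1.00 and 1.39. Over all genes 16.7% were called higher at 7 min and 24.1% at 24 min. Among the nucleases the cleavage factor RCL1 (3.24 and 3.30), the exonuclease REX4 (2.88 and 3.33), the endonuclease RNT1 (2.55 and 2.97) and NOB1 (2.06 and 2.29) rose most. TOD6 and DOT6 are paralogous repressors that bind the PAC promoter element of ribosome biogenesis genes. TOD6 rose 15.9-fold at 7 min and 19.7-fold at 24 min (limma adjusted p 2.55e-05 and 5.53e-06), while DOT6 gave 0.04 and 0.22 (limma adjusted p 0.910 and 0.456).

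**Figure D4:**
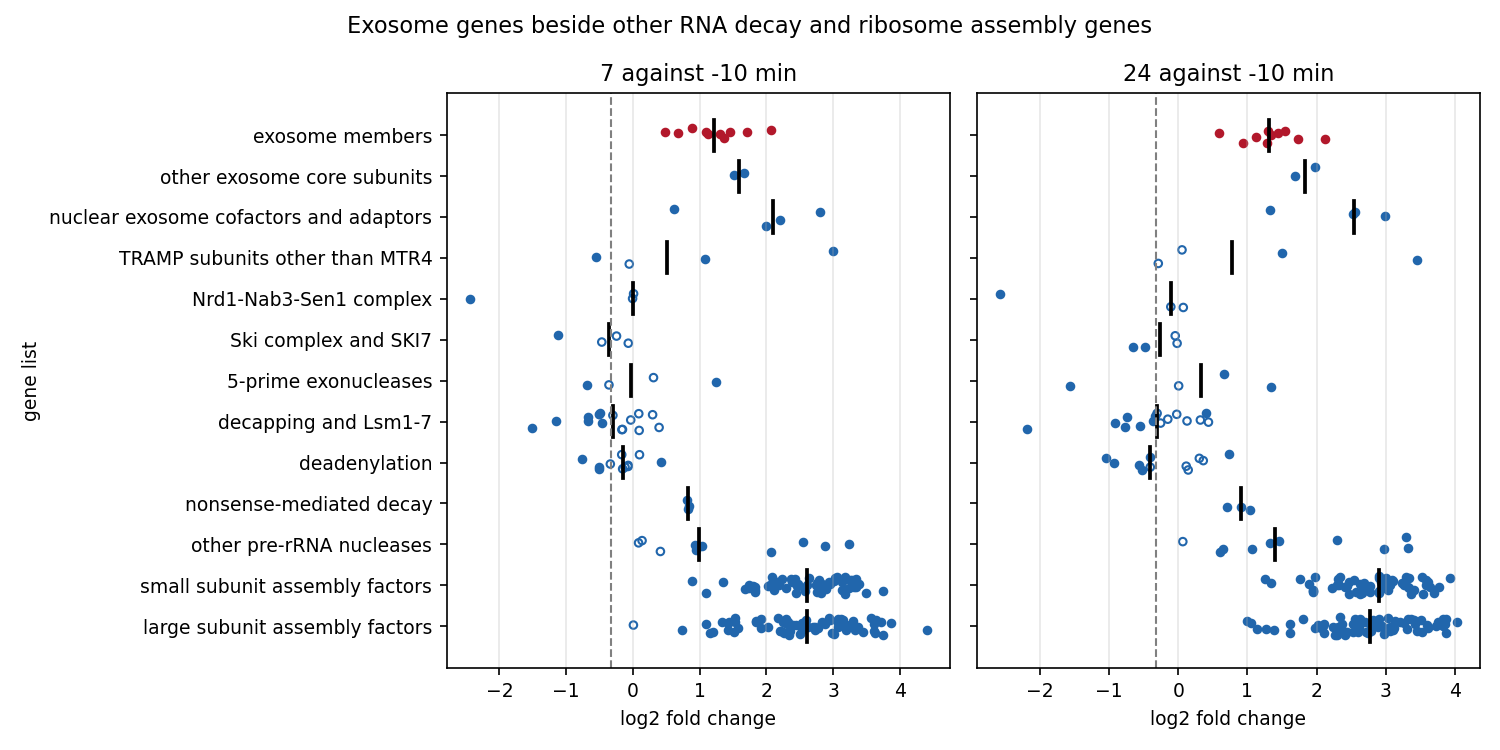
Log2 fold change (horizontal axis) of every gene of each list (vertical axis) at 7 against -10 min and 24 against -10 min. Points are genes, filled where called and open where not, with a vertical jitter that carries no value, black bars are list medians and the dashed line marks the median of all genes (-0.33). The medians of the 10 exosome genes (1.21 and 1.32) lie between those of the assembly factors (2.61 to 2.90) and the Ski genes (-0.36 and -0.26). Single assembly factors overlap the exosome genes, with 7 and 5 of 131 below the median of the 10.

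The gene across the upstream end of each exosome gene was also read. Neighbours were read from the order of genes in RefSeq assembly R64, with strand from the systematic names, and 5 of the 10 were divergent and 5 lay in tandem. Of the 10 neighbours, 3 were called higher and 5 lower at 7 min, and 2 higher and 5 lower at 24 min, next to 16.7% higher and 35.7% lower, then 24.1% and 44.9%, of all genes. At 24 min the neighbours were thus near the share of all genes. TRM5, a tRNA methyltransferase gene divergent from RRP4, rose by 2.42 and 2.66 (limma adjusted p 1.95e-05 and 3.85e-06). TAT2, an amino acid permease gene divergent from DIS3, rose by 1.55 and 4.58 (limma adjusted p 0.000401 and 1.25e-06), more at 24 min than any of the 10. TMA17, in tandem with RRP42, changed by -2.11 and -3.51 (limma adjusted p 0.000412 and 8.87e-06). RIB4, divergent from RRP40, was -0.31 at 7 min (limma adjusted p 0.209) and -0.87 at 24 min (limma adjusted p 0.00332). Calls of BNI4, RBK1, RNH202, TPC1, PHO80 and IRC8, the neighbours of CSL4, RRP43, RRP45, RRP46, RRP6 and MTR4, were gained or lost with the scaling or with an experiment left out.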

How the data were processed

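The deposited values are linear intensities per probe set, made with R 2.10.0, affy and RMA per the submitters' processing notes, which list neither their order nor settings. Array columns did not share 1 distribution (mean SD of equal-rank log2 values 0.118). Log2 of the deposited intensity was used with no further scaling. Of 10928 probe sets, 5498 list 1 S. cerevisiae gene, and the brightest was kept for 47 genes with several. Probe sets were named from the platform annotation, and 120 of those tested may read several transcripts.

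Tests used limma 3.58.1 in R 4.3.3 (1 mean per time, 14 arrays, 6 residual and 3.31 prior degrees of freedom), and figures matplotlib 3.10.9. On simulated data for 7 against -10 min over 5449 genes, 5 of 67 genes changed by 0.5 log2, 44 of 67 by 1 and 64 of 66 by 2 were called, with 3 false calls among 116. Only these genes were changed there, at 7 min alone and with independent noise, whereas 2857 genes were called in the data. The simulated shares of calls and of false calls therefore do not carry over to the data. The number of arrays limits the precision.

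The members, lists and naming rule were chosen with earlier results of these data known. Named are the 10 genes, SKI6, MTR3, TOD6 and DOT6, every gene of lists of up to 4, some of up to 4 called genes per time with the largest changes in longer lists, and the 5 most alike genes. Neighbours were named by position, and REA1 as the exception to a count. Promoter motifs were not analysed here.

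Experiment codes in the labels link arrays across times. After each time's mean was removed, arrays of BY003 correlated at 0.08 (-10 with 7 min), -0.05 (-10 with 24 min) and 0.21 (7 with 24 min), those of BY008 at 0.63, 0.36 and 0.35, and those of BY012 at 0.56, 0.08 and 0.44. Alternatives were the experiment as a block, other scalings, filters, thresholds and moderation, and leaving out each experiment. List counts under each setting were added after the data had been seen.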

Additional observations from a re-analysis of the deposited data

How the results depend on the processing

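No fitted estimate of the 10 exosome genes at 7 or 24 against -10 min changed sign under any alternative. With 3 arrays per time, changes near 0.5 log2 are at the limit of what the test calls. At 7 min 10 were called, 8 to 10 with an experiment left out and 7 with at least 2-fold required (RRP40, RRP45 and DIS3 fell short). At 24 min 10 were called, 9 to 10 with an experiment left out and 8 with at least 2-fold required (RRP40 and RRP45 fell short). From 7 to 24 min 1 was called higher, or 2 with the experiment as a replicate block or a random block, with array medians subtracted, with quantile normalization, without dim genes and without the -10 min array of BY012. That count was 0 at an adjusted p under 0.01, 0 with at least 2-fold required and 0 to 0 without each experiment. The gene gained under the block was DIS3, and the block ended no call of the 10. Over all genes 2857 were called at 7 min (1820 at adjusted p under 0.01, 1308 with at least 2-fold, 1373 to 2411 with an experiment left out), 3756 at 24 min (2296 with at least 2-fold, 2786 to 3478 with an experiment left out) and 1817 between 7 and 24 min (921, 799, and 388 to 1494). Calls split into 910 higher and 1947 lower at 7 min, 1312 and 2444 at 24 min, and 718 and 1099 between them. With array medians subtracted these were 1158 and 1320, 1738 and 1938, and 940 and 991, and with quantile normalization 1122 and 1395, 1805 and 1796, and 1003 and 794. RRP45 at 120 min in BY008, which has no test, changed sign: it was -0.06, or 0.05 with medians subtracted and 0.06 with quantile normalization. Differences at times with 1 array were set against the SD of the 3 arrays at -10 min. Of 50, 35 moved by more than that with the mean of those arrays as start, 22 with medians subtracted and 17 with quantile normalization. A new start shifts a gene equally at every time, so the 35 are not separate outcomes. Leaving out the arrays of times without replicates gave the same values, and the mean over probe sets and trend and robust moderation changed no call of the 10.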
